A study of Mus musculus with 6 samples.

Results

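Iron transport and storage was followed through 10 genes, chosen by symbol as known genes of iron handling in oligodendrocytes and other glia, of 52636 genes in the table: the ferritin chains Fth1 and Ftl1, transferrin (Trf), its receptor Tfrc, the transporters Slc40a1 and Slc11a2, ceruloplasmin (Cp), heme oxygenase Hmox1, and the iron regulatory proteins Aco1 and Ireb2. The tissue is mouse optic nerve, from which total RNA without ribosomal RNA was sequenced in 3 hND6 libraries, whose treatment label is a mutant human ND6 (a complex I subunit gene of mitochondrial DNA), and in 3 mCherry libraries, labelled with the name of a red fluorescent protein. The protocol text for both groups is the same and describes a lentivirus with the mutant gene injected into the eye, so what the mCherry group received is known from its name alone. Strain, age, sex, time after injection and whether each library was a separate animal are not stated by the labels, so the spread behind each p-value is that of libraries and can be technical in part. From Xist and Y-linked genes, 1 of the 3 hND6 and 2 of the 3 mCherry libraries were read as female. Values are FPKM, fragment counts divided by exon length and library size, which can be compared between genes because they are per length. In bulk tissue, fewer cells of a type and less RNA per cell cannot be told apart.

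Cells take up iron mainly as iron-loaded transferrin, which Tfrc carries into endosomes and from which Slc11a2 moves the reduced metal into the cytosol. Ferritin, a shell of heavy and light chains, stores it; Slc40a1 (ferroportin) is the exporter, and the copper oxidase ceruloplasmin oxidises the iron that leaves. Hmox1 frees iron from heme. Oligodendrocytes, the myelinating cells of the optic nerve, are known for a high iron content and for making transferrin. Supply and storage are balanced by Aco1 and Ireb2, which, when iron is scarce, bind a hairpin named the iron-responsive element. In a 5′ untranslated region the bound hairpin blocks translation, as in ferritin and ferroportin; in the 3′ untranslated region of Tfrc it protects the transcript from decay. Ferritin is thus set largely at translation, which RNA levels do not show, whereas for Tfrc the RNA level itself is a readout of the system.

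The hairpins are shown because their place in the transcript differs among the 4 members where the search found them. It is the 5′ untranslated region for those controlled at translation and the 3′ one for Tfrc, controlled by decay. They were read from GENCODE M21 transcripts (build GRCm38) by searching the transcript strand for a C, 5 bases, the loop CAGTGN with any last base but G, and 5 bases pairing with the first 5, with G to T pairs allowed. Each is printed 5′ to 3′ in 29 bases with T for U, and capitals mark the loop. The ferritin and ferroportin elements lie in 5′ untranslated regions, at chr19:9982732-9982760 (plus strand), chr7:45459779-45459807 (minus strand) and chr1:45925465-45925493 (minus strand).
Fth1: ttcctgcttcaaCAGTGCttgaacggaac
Ftl1: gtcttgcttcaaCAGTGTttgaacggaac
Slc40a1: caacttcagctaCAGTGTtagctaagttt
Tfrc held 4 matches, all in its 3′ untranslated region, of which the first (chr16:32631219-32631247, plus strand) and the last (chr16:32631710-32631738) are shown.
Tfrc, first: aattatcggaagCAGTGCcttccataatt
Tfrc, last: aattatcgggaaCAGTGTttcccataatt
Of 55450 annotated genes, 330 (0.595%) had a transcript with such a match. The other 6 members had none, which says only that these letters are not in their annotated transcripts; Slc11a2 is known to have a 3′ element of another shape. The element was in 5 of 9 annotated Fth1 transcripts, 2 of 6 for Ftl1 and 3 of 8 for Slc40a1. Each of the 4 Tfrc elements was in 2 of 7 annotated transcripts. The table does not separate transcripts.

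The smallest library, hND6 2, had about 20253600 reads on genes, recovered from the FPKM steps, and the largest, mCherry 2, about 34758900. Library mCherry 3 lay farthest out on principal component 1, which held 46.9% of the variance, and held the highest summed level of 6 neuron markers, 478 FPKM against 24.0 to 158 FPKM in the other 5 libraries. Photoreceptor markers summed to 175 FPKM in hND6 2 and to between 1.93 and 6.005 FPKM in the other 5 libraries. The oligodendrocyte and astrocyte markers of the labelled tissue were abundant in every library: 12 oligodendrocyte markers summed to 7951 to 9249.5 FPKM in hND6 and to 5630 to 8376 FPKM in mCherry, and 8 astrocyte markers to 2176 to 2564 FPKM in hND6 and to 1587 to 2089 FPKM in mCherry. No gene of the 13 marker lists passed the threshold.

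No iron gene separated the groups past an adjusted p of 0.05. Of the 9 members tested (mean of at least 0.5 FPKM), 0 passed in limma, where 0.0433% of all 16157 tested genes passed as higher in hND6 and 0% as lower; 1 member, Ftl1 (higher in hND6), was under 0.05 unadjusted, beside 9.11% of all tested genes that were so and higher and 6.05% that were so and lower. The voom fit called 0 members too, with 2 under 0.05 unadjusted, beside 2462 of 16157 tested genes. For both ferritin chains every hND6 library lay above every mCherry library, and Slc11a2 and Ireb2 lay lower in all 3. That is 2 of 9 members each way, beside 12.6% of all tested genes higher and 10.2% lower in this sense. On a scale of constant summed FPKM the members' split was 1 higher and 3 lower, beside 5.37% and 18.9% of all tested genes. Without mCherry 3 it was 3 higher and 2 lower, beside 19.9% and 21.1%. The median log2 fold change was 0.16 over the 9 members and -0.010 over all tested genes. The members' median was 0.016 at constant summed FPKM, 0.061 with quantile normalisation, 0.042 without mCherry 1 and 0.026 without mCherry 2.

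**Figure D1:**
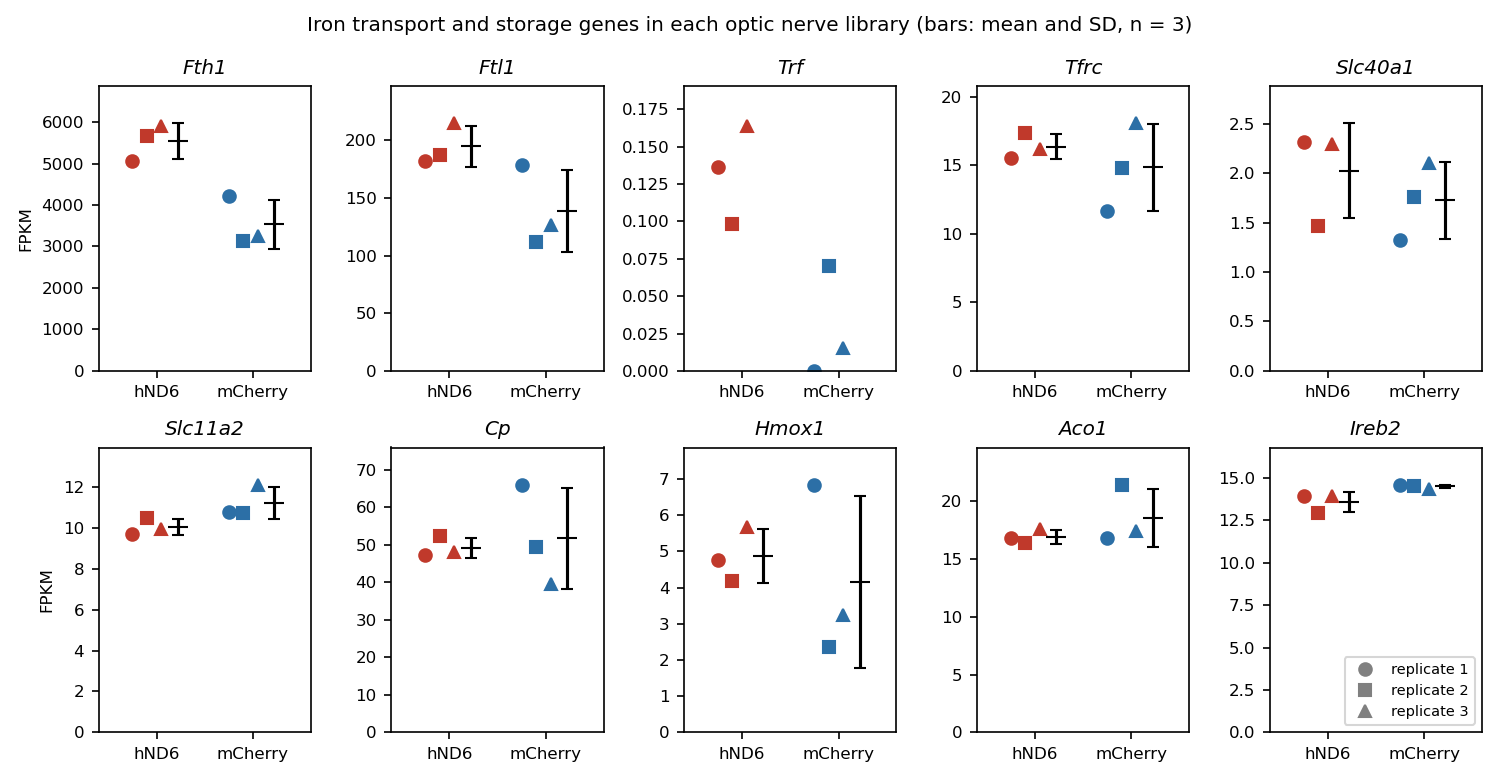
FPKM of the 10 iron genes in the 3 hND6 (left, red) and 3 mCherry (right, blue) libraries, one marker shape per replicate number, with mean and SD (none for Trf, listed at 0 in mCherry 1). The groups do not overlap for Fth1 and Ftl1 (hND6 higher), Slc11a2 and Ireb2 (hND6 lower) and for Trf at under 0.2 FPKM, and overlap for the other 5.

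Levels spanned more than the difference between groups did. In hND6, Fth1 averaged 5536 FPKM, Ftl1 195, Cp 49.2, Aco1 16.9, Tfrc 16.4, Ireb2 13.6, Slc11a2 10.05, Hmox1 4.87 and Slc40a1 2.03 FPKM. The order of the means was the same in mCherry. Aco1 and Tfrc lay within their spread of each other in both groups, and in mCherry so did Tfrc (14.8 ± 3.20) and Ireb2 (14.5 ± 0.107) (SD, n = 3).

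The ferritin heavy chain Fth1 (chromosome 19 of GRCm38, 9982703 to 9985092, plus strand) encodes the subunit that oxidises iron on its way into the shell. It stood at 5053, 5653 and 5903 FPKM in hND6 replicates 1 to 3 and at 4213, 3135 and 3259 FPKM in mCherry replicates 1 to 3. The groups did not overlap, and mCherry 1 lay nearest to hND6. It ranked 4 of 16157 tested genes by mean FPKM, with 355866 reads in hND6 and 273320 in mCherry. Its share of all summed FPKM was 1.21%, 1.28% and 1.31% in hND6, against 1.153%, 0.769% and 0.792% in mCherry. The mean was 1.57 times as high in hND6, with 0.66 ± 0.35 (SE) on the log2 scale and a 95% interval of -0.19 to 1.503 (limma adjusted p = 0.425). This SE depended on the limma setting, while the log2 fold change stayed at 0.66. It was 0.15 without the intensity trend, 0.18 with the robust setting, 0.16 with voom and 1.99 with no filter. The limma adjusted p was 0.258, 0.210, 0.212 and 0.910 in that order.

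The light chain Ftl1 (chromosome 7, 45457944 to 45459884, minus strand), whose product helps the mineral core to form, was also higher in each hND6 library. It stood at 182, 187 and 215 FPKM in hND6 and at 178, 111 and 126 FPKM in mCherry. The groups did not overlap, but mCherry 1 came close to hND6 1. The log2 fold change was 0.51 ± 0.19 (SE), with an unadjusted 95% interval of 0.06 to 0.96 (limma adjusted p = 0.285). With values scaled to a constant sum of FPKM, mCherry 1 lay above all 3 hND6 libraries for Ftl1, and Fth1 still separated the groups.

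Both ferritin genes are short on the chromosome, at 2390 and 1941 bp, and short genes lay higher in hND6 in general. Among 743 tested protein-coding genes of a span within 1.5-fold of that of Fth1, the median log2 fold change was 0.30, and 34.6% lay higher in all 3 hND6 libraries. For 564 genes of a span like that of Ftl1 these values were 0.33 and 37.8%. After the trend of level with gene span was taken out of every library, the log2 fold change was 0.41 for Fth1 and 0.24 for Ftl1 (limma adjusted p = 0.742 and 0.705). Quantile normalisation, which gives every library the same set of values, gave 0.06 for Fth1.

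**Figure D2:**
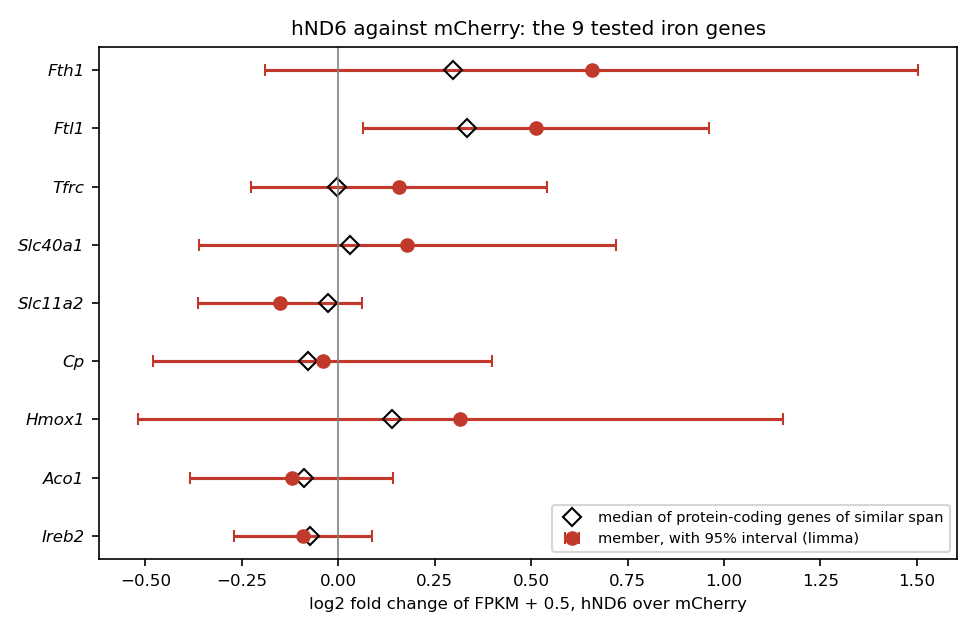
Log2 fold change (FPKM + 0.5, hND6 over mCherry) of the 9 tested members with limma's unadjusted 95% interval (red), and the median over protein-coding genes of a span within 1.5-fold (open diamonds). Fth1 (0.66) and Ftl1 (0.51) lie to the right of their diamonds (0.30 and 0.33), within intervals that include them.

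The 2 chains can be set against each other within a library, where scaling cancels. The ratio of Fth1 to Ftl1 FPKM was 27.8, 30.2 and 27.5 in hND6, against 23.6, 28.1 and 25.8 in mCherry. The groups overlapped (difference 0.14 on the log2 scale, exact two-sided permutation p = 0.3, smallest possible 0.1). Oligodendrocyte markers lay in the same direction as ferritin, with 11 of 12 at a log2 fold change above 0 (median 0.33), beside 7848 of 16157 tested genes. Of these markers, 3 of 12 lay higher in every hND6 library, beside 12.6% of all tested genes. Within hND6 their sum was lowest in hND6 1, as were Fth1 and Ftl1. Within mCherry the orders differed: the sum was 7211, 8376 and 5630 FPKM in replicates 1 to 3, and mCherry 2 had the lowest Fth1 and Ftl1. Meninges and fibroblast markers (6 of 6 above 0, median 0.32) also lay in the direction of ferritin, and neuron markers (1 of 6 above 0, median -0.38) in the other. The part of oligodendrocytes in the ferritin values was not tested. The size of the ratio depends on how reads of copies were counted. Of the 50-base words of the Ftl1 transcript, 78.9% also occur in transcripts of other annotated genes, against 6.59% for Fth1 and 0% for the members other than Ftl1, Fth1 and Trf. The genes that share words with Ftl1 include Ftl1-ps1, which has a pseudogene name but is labelled protein-coding, and the pseudogene Ftl1-ps2. Ftl1-ps1 was listed at 6.82, 6.58 and 7.19 FPKM in hND6 and at 6.53, 3.18 and 4.56 FPKM in mCherry. In its group mCherry 1 was highest and mCherry 2 lowest, as for Ftl1 but also for Fth1 and Hmox1. Among hND6 libraries the orders differed, with hND6 2 lowest for Ftl1-ps1 and hND6 1 lowest for Ftl1. The labels do not say how reads matching several places were treated, so the level of Ftl1 is uncertain.

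Transferrin could not be measured. Trf (chromosome 9, 103208795 to 103230444, minus strand), a major product of oligodendrocytes, was listed at 0.136, 0.0983 and 0.164 FPKM in hND6 and at 0, 0.0704 and 0.0151 FPKM in mCherry. These values are 12, 5 and 9 reads in hND6 and 0, 6 and 1 reads in mCherry, in libraries whose summed oligodendrocyte markers were at least 5630 FPKM. Trf did not reach the level for testing. Per unit of library size, hND6 had 4.43 times the reads of mCherry, with an exact binomial 95% interval of 1.87 to 12.1 that covers counting error only.

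The predicted gene Gm20425 (103190208 to 103230307, same strand) shares 82.0% of the 2571 exon bases of the Trf transcript that the table names, and overlaps 16 of its 17 exons. It was listed at 0 in all 6 libraries. Over all annotated exons of the gene, Trf shares 63.5% of its bases with Gm20425. On that measure the ferredoxin Fdx1l, an iron-sulfur gene singled out after its values were seen, shares 72.7% with same-strand genes. Fdx1l was also listed at 0 in every library. How overlapping genes were counted is not stated, and the part of overlap in the Trf values was not tested. The deposited Trf values are therefore not read as the level of the transcript, and no difference between the groups is read from them.

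**Figure D3:**
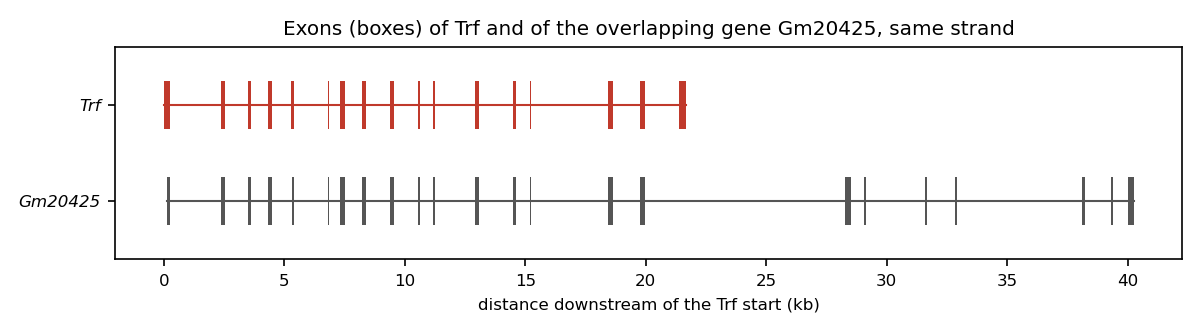
Exons (boxes, to scale in kb from the start of Trf) of the Trf transcript named in the table and of Gm20425, which lies on the same strand, in GENCODE M21. Gm20425 shares 16 of the 17 Trf exons in whole or part and runs on beyond the end of Trf.

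The receptor Tfrc (chromosome 16, 32608920 to 32632794), the member whose RNA the hairpins protect from decay, stood at 15.5, 17.3 and 16.2 FPKM in hND6 and at 11.7, 14.8 and 18.1 FPKM in mCherry. The 3 hND6 values lay inside the mCherry range. The log2 fold change was 0.16 ± 0.16 (SE), with a 95% interval of -0.23 to 0.54 (limma adjusted p = 0.682). It was 0.00068 without mCherry 1 and 0.016 at constant summed FPKM. Without mCherry 3 it was 0.31, and the remaining groups did not overlap, as for 19.9% of all tested genes that were then higher in hND6 and 21.1% that were lower.

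The endosomal transporter Slc11a2 (chromosome 15, 100392563 to 100423002) stood at 9.69, 10.5 and 9.97 FPKM in hND6 and at 10.8, 10.7 and 12.1 FPKM in mCherry. All hND6 libraries lay lower, by a narrow margin. The log2 fold change was -0.15 ± 0.09 (SE), with a 95% interval of -0.36 to 0.06 (limma adjusted p = 0.467). It was -0.29 at constant summed FPKM and -0.096 without mCherry 3.

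The exporter Slc40a1 (chromosome 1, 45908068 to 45925582) stood at 2.31, 1.47 and 2.29 FPKM in hND6 and at 1.32, 1.75 and 2.10 FPKM in mCherry. It rested on 98 to 267 reads a library in hND6 and 135 to 196 in mCherry, and its groups overlapped (log2 fold change 0.18 ± 0.22 (SE), 95% interval -0.36 to 0.72, limma adjusted p = 0.741). Its fold change was 0.042 without mCherry 1, 0.091 without hND6 1, 0.097 without hND6 3, 0.30 without mCherry 3 and 0.35 without hND6 2. The copper oxidase Cp (chromosome 3, 19957054 to 20007609), made by astrocytes in the nervous system, stood at 47.3, 52.3 and 48.0 FPKM in hND6 and at 66.0, 49.5 and 39.6 FPKM in mCherry. The mCherry range extended beyond the hND6 values on both sides. Its log2 fold change was -0.041 ± 0.18 (SE), with an interval of -0.48 to 0.40 (limma adjusted p = 0.932). It was -0.22 without mCherry 3 and -0.19 at constant summed FPKM. The direction of Cp turned round without mCherry 1 (0.15) and with the gene span trend removed (0.027).

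Hmox1 (chromosome 8, 75093621 to 75100589) breaks down heme and is known to be induced by heme and by oxidative stress. It stood at 4.77, 4.19 and 5.67 FPKM in hND6 and at 6.85, 2.36 and 3.25 FPKM in mCherry, from 123 to 326 reads a library. The highest library, mCherry 1, was in the lower group by mean. The log2 fold change was 0.32 ± 0.35 (SE), with a 95% interval of -0.52 to 1.152 (limma adjusted p = 0.706). Without mCherry 1 it was 0.70, and without mCherry 2 it was 0.026, and at constant summed FPKM 0.18.

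Red blood cell markers lay further apart between the groups than Hmox1 did, with 6 of 6 tested higher in every hND6 library, beside 12.6% of all tested genes (median log2 fold change 2.47). The summed level of 7 erythroid genes was 1365, 2603 and 1792 FPKM in hND6, against 468, 180 and 366 FPKM in mCherry, led by beta globin Hbb-bs (1196 ± 384 in hND6, 207 ± 90.9 in mCherry) and alpha globin Hba-a1 (396 ± 139 in hND6, 72.7 ± 31.3 in mCherry; SD, n = 3). Among hND6 libraries the one with the highest erythroid sum, hND6 2, had the lowest Hmox1. Among mCherry libraries Hmox1 and the erythroid sum had the same order, highest in mCherry 1 and lowest in mCherry 2. The part of blood in the Hmox1 values was not tested.

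The 8 microglia markers summed to 504, 565 and 654 FPKM in hND6 and to 615, 345 and 342 FPKM in mCherry. Of these, 8 of 8 had a log2 fold change above 0 (median 0.46), beside 7848 of 16157 tested genes. All hND6 libraries lay higher for 4 of 8 microglia, 4 of 8 astrocyte and 0 of 6 border macrophage markers, beside 12.6% of all tested genes. C1qa, a complement subunit, had a mean FPKM of 141 ± 30.9 in hND6 and 110 ± 63.8 in mCherry (SD, n = 3). The 6 border macrophage markers summed to 22.4, 18.2 and 15.2 FPKM in hND6 and to 28.3, 16.05 and 12.7 FPKM in mCherry. In hND6 the order of libraries by Fth1 was that of the microglia and astrocyte sums and the reverse of that of the macrophage sums. Library mCherry 1, with the highest Fth1, Ftl1, Hmox1 and Cp of its group, also had the group's highest microglia, macrophage, astrocyte and erythroid sums. The part of these cells in the iron genes was not tested.

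Relative to the mean log2 level of the microglia markers, Hmox1 lay at -3.13, -3.45 and -3.19 in hND6 and at -2.65, -3.55 and -3.12 in mCherry, a difference of -0.15 (exact two-sided permutation p = 0.7, smallest possible 0.1). Slc40a1 lay at -4.03, -4.70 and -4.33 in hND6 and at -4.67, -3.90 and -3.64 in mCherry, a difference of -0.29 (exact p = 0.4). The groups overlapped for both genes. Against border macrophage markers both differences turned round, to 0.30 for Hmox1 and 0.16 for Slc40a1, and without mCherry 1 that of Hmox1 against microglia markers was 0.080.

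**Figure D4:**
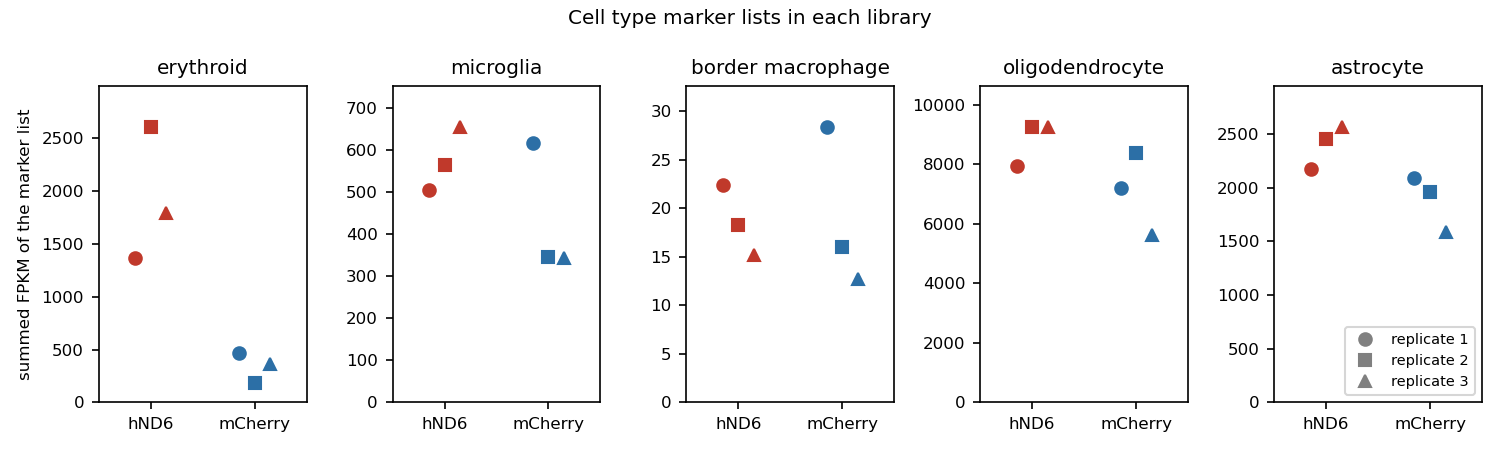
Summed FPKM of 5 marker lists in each library, with hND6 left and mCherry right and one marker shape per replicate number. Erythroid sums are 1365 to 2603 in hND6 and 180 to 468 in mCherry, without overlap, whereas the microglia sum of mCherry 1 (615) lies within the hND6 range (504 to 654).

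For the sensors of the system, Aco1 and Ireb2, RNA levels differed little between the groups (log2 fold changes -0.12 and -0.09). RNA does not show the amount or state of these proteins. Aco1 (chromosome 4, 40143081 to 40198338), a cytosolic aconitase that binds the hairpins once it has lost its iron-sulfur cluster, stood at 16.8, 16.4 and 17.6 FPKM in hND6 and at 16.8, 21.4 and 17.4 FPKM in mCherry. Only mCherry 2 lay outside the range of the other 5 libraries by more than 3 FPKM. Its log2 fold change was -0.12 ± 0.11 (SE), with a 95% interval of -0.38 to 0.14 (limma adjusted p = 0.641). It was -0.015 without mCherry 2, -0.19 without mCherry 1, -0.045 with the gene span trend removed and -0.26 at constant summed FPKM.

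Ireb2 (chromosome 9, 54863789 to 54912530), whose protein is degraded when iron is plentiful, stood at 13.9, 12.9 and 13.9 FPKM in hND6 and at 14.6, 14.5 and 14.4 FPKM in mCherry. All hND6 libraries lay lower, at 0.937 times the mCherry mean. The log2 fold change was -0.09 ± 0.07 (SE), with a 95% interval of -0.27 to 0.09 (limma adjusted p = 0.603). It was -0.057 without hND6 2, -0.027 with the gene span trend removed and -0.23 at constant summed FPKM. Protein-coding genes of similar span had a median of -0.07, and those of a span like that of Aco1 -0.09.

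Beyond the members, 80 further genes of iron handling were followed in 7 lists, 67 of them tested. Of these 0 passed in limma and 0 in voom. In limma, 12 of 67 were under 0.05 unadjusted and higher in hND6, and 2 were so and lower. For all tested genes these shares were 9.11% and 6.05%. In voom, 14 were under 0.05 unadjusted, beside 2462 of 16157 tested genes. In 14 genes all hND6 libraries lay higher and in 4 all lay lower, which is 20.9% and 5.97% beside 12.6% and 10.2% of all tested genes. The median log2 fold change was 0.11, against -0.032 at constant summed FPKM and 0.058 without mCherry 3. On a scale of constant summed FPKM, where the median of all genes shifted to -0.14, the split was 7 higher and 8 lower, beside 5.37% and 18.9% of all tested genes. Without mCherry 3 it was 20 higher and 9 lower, beside 19.9% and 21.1% of all tested genes.

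Genes that deliver iron to ferritin and recycle it were the nearest neighbours of the ferritin chains. Of 5 tested, 3 lay higher in all hND6 libraries and 1 lower, beside 12.6% and 10.2% of all tested genes (median log2 fold change 0.18). Pcbp1, a chaperone that hands iron to ferritin, stood at 53.4, 59.6 and 60.4 FPKM in hND6 and at 44.9, 41.9 and 44.4 FPKM in mCherry, 0.40 ± 0.08 (SE) on the log2 scale (limma adjusted p = 0.162). Herc2, a ubiquitin ligase that acts on the ferritin cargo receptor Ncoa4, stood at 17.5, 17.8 and 17.2 FPKM in hND6 and at 19.8, 20.1 and 20.3 FPKM in mCherry (-0.20 ± 0.07, adjusted p = 0.270). Pcbp1 spans 1830 bp and Herc2 181375 bp.

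Heme synthesis had 4 of 9 genes higher in all hND6 libraries and none lower, beside 12.6% and 10.2% of all tested genes (median 0.17). Alas2, the first enzyme of the pathway in red cell precursors and also one of the erythroid markers, stood at 15.8, 32.9 and 23.1 FPKM in hND6 and at 7.31, 2.96 and 5.13 FPKM in mCherry, 2.13 ± 0.37 (SE) on the log2 scale (limma adjusted p = 0.1498). Its order of libraries was that of the erythroid sums in hND6. Cpox, a later enzyme of the pathway, stood at 48.0, 54.3 and 48.8 FPKM in hND6 and at 37.6, 40.3 and 31.2 FPKM in mCherry (0.47 ± 0.11, adjusted p = 0.193).

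Of 23 tested genes of mitochondrial iron and iron-sulfur clusters, the cofactors of complex I among other enzymes, 5 (21.7%) lay higher in all hND6 libraries and 2 (8.70%) lower, beside 12.6% and 10.2% of all tested genes (median 0.11). Bola3, a late assembly factor, stood at 7.09, 7.59 and 8.58 FPKM in hND6 and at 5.04, 4.96 and 6.24 FPKM in mCherry (0.48 ± 0.13 on the log2 scale, limma adjusted p = 0.207). The scaffold Iscu stood at 18.6, 18.9 and 18.6 FPKM in hND6 and at 14.6, 13.6 and 16.4 FPKM in mCherry (0.32 ± 0.09, adjusted p = 0.210).

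Control of the iron regulatory proteins and other transcripts with the hairpin gave 2 of 6 genes higher in all hND6 libraries and none lower, beside 12.6% and 10.2% of all tested genes (median -0.060). Skp1a, a subunit of the ligase that degrades Ireb2 and many other proteins, averaged 76.0 ± 1.90 FPKM in hND6 and 57.5 ± 7.05 in mCherry (SD, n = 3; 0.40 on the log2 scale, limma adjusted p = 0.199). Epas1, a hypoxia factor with an element in its 5′ untranslated region, averaged 42.5 ± 1.12 in hND6 and 37.6 ± 1.98 in mCherry (0.18, adjusted p = 0.331).

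In the lists of uptake (10 tested), export (5 tested) and heme handling (9 tested), 1 gene had groups without overlap, lower in hND6, beside 12.6% higher and 10.2% lower of all tested genes. Mcoln1, which lets iron out of late endosomes and lysosomes, stood lower at 21.7, 19.7 and 21.2 FPKM in hND6, against 22.6, 25.5 and 23.4 FPKM in mCherry (limma adjusted p = 0.347), and the metal importer Slc39a8 overlapped (log2 fold change 0.30, adjusted p = 0.458). The list medians were 0.024 for uptake, 0.12 for export and -0.071 for heme. Hfe, a partner of the transferrin receptors, averaged 12.1 ± 0.552 in hND6 and 9.53 ± 2.03 in mCherry (adjusted p = 0.351), and App, which is reported to aid export, 513 ± 45.8 in hND6 and 444 ± 31.4 in mCherry (adjusted p = 0.493). The heme transporter Slc48a1 averaged 107 ± 11.3 in hND6 and 83.5 ± 10.99 in mCherry (limma adjusted p = 0.280), and the heme exporter Flvcr1 15.04 ± 0.127 in hND6 and 17.9 ± 3.32 in mCherry (adjusted p = 0.495; SD, n = 3 each).

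**Figure D5:**
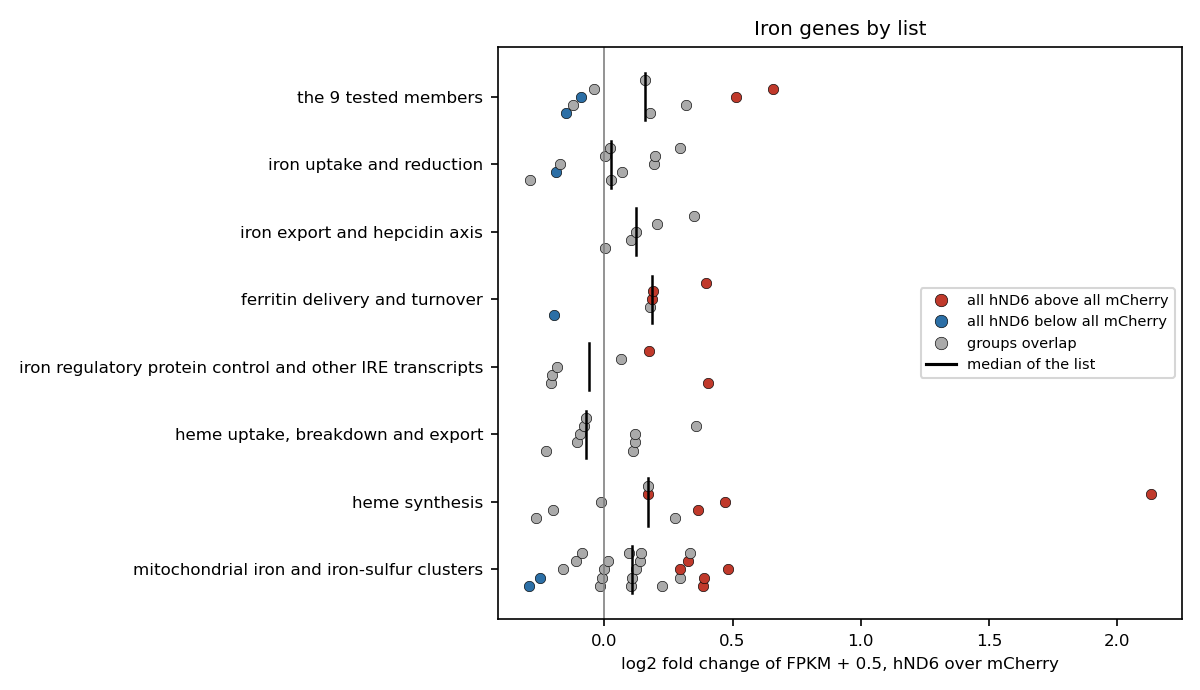
Log2 fold changes (FPKM + 0.5, hND6 over mCherry) of the 9 tested members and of 67 further iron genes by list, coloured by whether the groups overlap, with list medians as black lines. Alas2 stands apart at 2.13, and the other points lie between -0.30 and 0.66.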

How the data were processed

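RNA of 6 mouse optic nerve libraries was analysed from the deposited FPKM, gene values that the authors scaled by length and depth, per the labels. The tools STAR, HTSeq, Trim Galore and CASAVA 1.4 and the builds GRCm38 and mm10 are listed, with no roles, per the submitters' processing notes. The 6 single tables equal the combined one. Multiplied by exon length, values were whole multiples of 1 step per library for at least 99.99% of values above 0 (within 0.1 read), which gave the reads. Gene positions, spans and exon lengths (other units, in base pairs) come from the authors' deposited gene table.

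Genes averaging at least 0.5 FPKM, 16157 in all, were tested on log2(FPKM + 0.5), which understates changes of low genes, with limma 3.58.1 (R 4.3.3; intensity trend; Benjamini-Hochberg over all tested genes; threshold 0.05), and the code was tested on simulated data. Ratios within a library were compared with exact permutation tests. The members, gene lists and alternatives were chosen with earlier results of these data known. Named genes are the 10 members, the 2 genes of smallest p per further list and the 2 most abundant of the marker lists described; Fdx1l is named in addition, and a gene that this rule takes is not reported here. Trf was to be set against oligodendrocyte markers, which was left out because Trf had at most 12 reads a library. Alternatives were other pseudocounts, filters, scalings, limma settings, the replicate block, voom on recovered reads, sex (from Xist and Y-linked genes) and gene span terms, and left-out libraries; those on overlap of groups were added after the data were seen. The interval of the Trf read ratio covers counting error only. For limma, intervals rest on a gene's spread between libraries, drawn towards the trend of spread with level over all tested genes.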

Additional observations from a re-analysis of the deposited data

How the results depend on the processing

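None of the 9 tested members and none of the 67 further iron genes passed under any of the 22 alternatives to the limma test. Of the members, 8 kept their direction in all 22. Cp (-0.041) reversed to 0.15 without mCherry 1 and to 0.027 with the gene span trend removed, and ran from -0.22 to 0.15 when single libraries were left out. Log2 fold changes ran from 0.06 (quantile normalisation) to 0.79 (without mCherry 1) for Fth1, from 0.24 to 0.71 for Ftl1, and from 0.00068 (without mCherry 1) to 0.34 for Tfrc. With sex as a covariate they were 0.72 for Fth1, 0.62 for Ftl1 and 0.51 for Hmox1 (limma adjusted p = 0.491, 0.258 and 0.506). With the replicate block 0 members and 0 of all genes passed; same-numbered libraries correlated at -0.42, 0.36 and -0.20 in their deviations from the group means, so the numbers are not read as pairs. The count over all 16157 genes, 7, was 1 with no filter, 0 with voom, 4 with sex as a covariate, 1 without mCherry 3 and hND6 1, 0 without mCherry 3 and hND6 2, and ran from 0 to 131 when single libraries were left out, with 131 without mCherry 3. Among further iron genes, groups without overlap numbered 18, and 29 without mCherry 3. Against border macrophage markers, Slc40a1 differed by 0.16 and Hmox1 by 0.30, reversed from -0.29 and -0.15. Leaving out single libraries gave 0.081 to 0.21 for the Fth1 to Ftl1 ratio, -0.58 to -0.073 for Slc40a1 and -0.37 to 0.080 for Hmox1 relative to microglia markers. The causes of these shifts were not tested. At 98 to 326 reads a library, Slc40a1 and Hmox1 are the members that depth limits most beside Trf.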

Other observations

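Of the 80 further iron genes, 13 averaged under 0.5 FPKM and were not tested. Hamp, which encodes the hormone hepcidin that removes ferroportin from the cell surface, was listed at 0.247 FPKM in hND6 2 and at 0 in the other libraries, and Hamp2 at 0 in all 6. The mitochondrial ferritin Ftmt was listed at 0 in all 6 libraries, and the second transferrin receptor Tfr2 at 0.0856, 0.0165 and 0.198 FPKM in hND6 and at 0.0751, 0.0589 and 0.405 FPKM in mCherry. Of 15 other table entries named as ferritin genes or pseudogenes, 13 were listed at 0 in every library. The exceptions were Ftl1-ps1 and Ftl1-ps2, the last at 0.180 FPKM in mCherry 1 alone. As for Fdx1l at 0 and Trf near 0, such a value for a gene with near-identical copies or same-strand overlap is not read as absence of its transcript.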
